A study of Mus musculus with 14 samples.

Results

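The spleen and the ovary of wild-type mice were compared gene by gene in the RNA-seq libraries that served as controls for mice lacking ZFP36L2. The 7 wild-type libraries of the series, out of 14, were taken: 4 spleens and 3 ovaries, each library labelled with its own animal. All 7 mice carried both wild-type copies of Zfp36l2 together with the CMV-Cre transgene, in which the cytomegalovirus promoter drives Cre recombinase in every tissue from early embryogenesis, and they were littermate controls of the L2-cKO mice (also called L2-fKO). Spleens 1 and 3 are labelled female, spleens 2 and 4 male, and the ovaries are necessarily female. The tissue label of the spleen libraries reads "Spleen Organoid". The spleens came from pups in the first days after birth and the ovaries from animals matched in age to their knockouts, while the age of each animal was not given in the sources used here. RNA was polyadenylated RNA from whole organs, so that a gene's level counts all cells of the organ. Genes were matched between the tissues by Ensembl identifier, which left 18603 genes, all rows of the ovary table.

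The spleen filters blood, removes aged red cells and houses B and T lymphocytes, and in young mice it also produces red cells, granulocytes and platelets. The ovary holds oocytes, each enclosed by granulosa cells and, in growing follicles, by steroid-producing theca cells, within a collagen-rich stroma covered by a surface epithelium. ZFP36L2 binds AU-rich elements (AREs) in messenger RNAs and recruits the enzymes that shorten the poly(A) tail. In mice its loss impairs both blood formation and oocyte maturation.

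Reads on the shared genes numbered from 31052510 to 44388566 per library. Levels are given as CPM, counts per 1000000 reads after TMM scaling of all 7 libraries together, and differences as log2 spleen minus ovary of CPM + 0.1, so that positive values are higher in spleen. Correlations of log2 levels between replicates lay between 0.9829 and 0.9952 among the spleens and between 0.9919 and 0.9946 among the ovaries, and no pair of libraries agreed within sampling noise. Zfp36l2 had 97.2 to 179 reads per 1000000 in the wild-type spleens and 129 to 133 in the wild-type ovaries, against 6.34 to 10.6 and 19.6 to 27.6 in the L2-cKO spleens and ovaries. Tissue cannot be told apart from the table a library came from, since each tissue was deposited in its own table, nor fully from sex. With the age of each animal unknown, a difference in age between spleen and ovary donors cannot be told apart from tissue. In whole organs, fewer cells of a type and less RNA per cell cannot be told apart either.

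Blood cell genes were higher in spleen, and oocyte, follicle and stromal genes were higher in ovary. Of 17945 genes with enough reads to test, 3602 were called higher in spleen and 5846 higher in ovary, that is 20.1% and 32.6% of the genes tested, or 52.6% in either direction. A call required an adjusted p below 0.05 in limma with Benjamini-Hochberg adjustment and an absolute log2 difference above 1. The libraries of the tissues did not overlap for 79.5% of the genes tested. Median log2 difference over all genes was −0.17. With libraries scaled to total reads alone, this median moved to −0.75, a shift of −0.60, and 2115 genes were called higher in spleen and 7835 in ovary, so that the share of calls higher in spleen went from 38.1% to 21.3%. Small differences in favour of spleen therefore depended on the scaling, and list members that lost their call are named below. Large differences were many: 813 genes in spleen and 1837 in ovary exceeded 3 on the log2 scale, 85 and 167 exceeded 7, and 23 and 47 exceeded 9. Among the genes with a row in both tables, 13477 reached a mean of 1 CPM in spleen and 14759 in ovary, with 12594 in both, 883 in spleen only and 2165 in ovary only. A further 674 genes reached that mean in the spleens but had no row in the ovary table, 138 of them at 10 CPM or more. These numbers therefore do not compare how many genes each organ has to itself. Genes without an ovary row could not add to the calls or to the large differences in spleen either. The counts of both are thus not on an equal footing between the tissues.

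**Figure D1:**
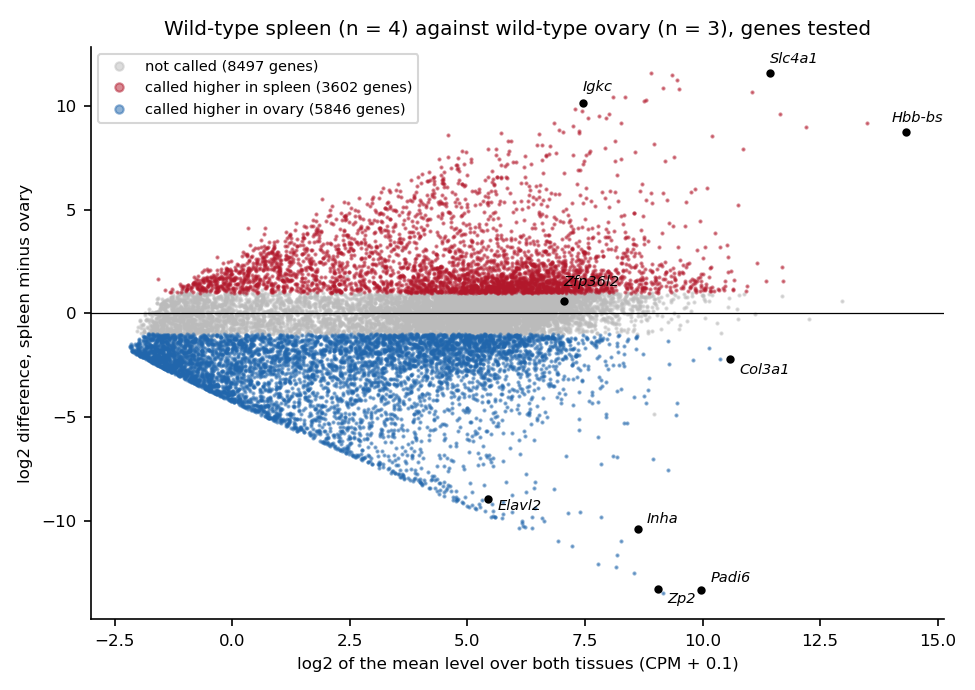
Each point is 1 of the 17945 genes tested, with the log2 of its mean level over both tissues (CPM + 0.1) on the x axis and its log2 difference, spleen minus ovary, on the y axis. Red points are the 3602 genes called higher in spleen, blue points the 5846 called higher in ovary and grey points the others. Slc4a1 lies at 11.59 and Padi6 at −13.35, while Zfp36l2 lies among the genes not called at 0.61.

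The 12 genes with the largest differences in favour of spleen, among called genes of at least 50 CPM, came from red cell precursors, neutrophils and B cells. Genes without an ovary row, such as Camp (634 CPM on average in the spleens), could not enter this ranking. Slc4a1, the band 3 anion exchanger of the red cell membrane (ENSMUSG00000006574, GRCm38 chr11:102348824-102366203), had 5189, 4735, 6269 and 6014 CPM in the spleens and 4.94, 0.375 and 2.28 CPM in the ovaries. Every spleen lay far above every ovary, and the log2 difference of Slc4a1 was 11.59 ± 0.63 (SE, limma adjusted p 1.71e-07). Hemgn, a nuclear regulator of blood progenitors, differed by 11.57, Ctse, the aspartic protease cathepsin E, by 10.85, Car2, a carbonic anhydrase, by 10.68, and Ermap, an erythroblast membrane protein, by 10.23. Neutrophil proteins followed the same direction: Ngp (neutrophilic granule protein) differed by 11.51, S100a9 and S100a8, the subunits of calprotectin, by 10.81 and 10.28, Stfa1, a cysteine protease inhibitor, by 10.46, and Ltf, lactoferrin, by 10.43. Stfa1 belongs to a family of near-identical genes, so that its reads may be shared. Igkc, the kappa light chain constant region of immunoglobulins, had 620, 367, 121 and 294 CPM in the spleens and 0.259, 0.0893 and 0.175 CPM in the ovaries. All of these 12 genes were highest in ovary 1 among the ovaries, and 11 of the 12 were lowest in ovary 2.

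The 12 genes at the other end belonged to the oocyte and its follicle. Nlrp14, an oocyte NLR-family protein needed for early embryos (ENSMUSG00000016626, chr7:107166990-107198102), had 1199, 1102 and 1143 CPM in the ovaries and no read in any spleen. Against 3 reads over the spleens together, the limit a count of 0 allows, it was at least 55322-fold higher in ovary, and Khdc1b, with 476, 419 and 423 CPM in the ovaries and no spleen read, was at least 21167-fold higher. Padi6, the peptidylarginine deiminase of oocyte cytoplasmic lattices, had 1906, 1977 and 2121 CPM in the ovaries and 0.0283 to 0.245 CPM in the spleens, a difference of −13.35 ± 0.33 (SE). Zp2, Zp3 and Zp1 encode glycoproteins of the zona pellucida, the coat around the oocyte, and differed by −13.28, −12.22 and −11.21, with 1, 3 and 4 reads over all spleens. Nlrp5, part of the subcortical maternal complex, differed by −12.49 and Nlrp4f by −10.98. Astl, the protease ovastacin that hardens the zona after fertilisation, differed by −10.36. The somatic cells of the follicle gave the rest: Hsd3b1, which makes progesterone from pregnenolone, differed by −11.63, Akr1cl, an aldo-keto reductase, by −10.98, and Inha, the inhibin alpha subunit of granulosa cells, by −10.41. In all, 292 genes called higher in ovary had no read in any of the 4 spleens, whereas no gene called higher in spleen was without reads in the ovaries. The ovary table holds only genes with at least 61 reads over its 6 libraries.

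**Figure D2:**
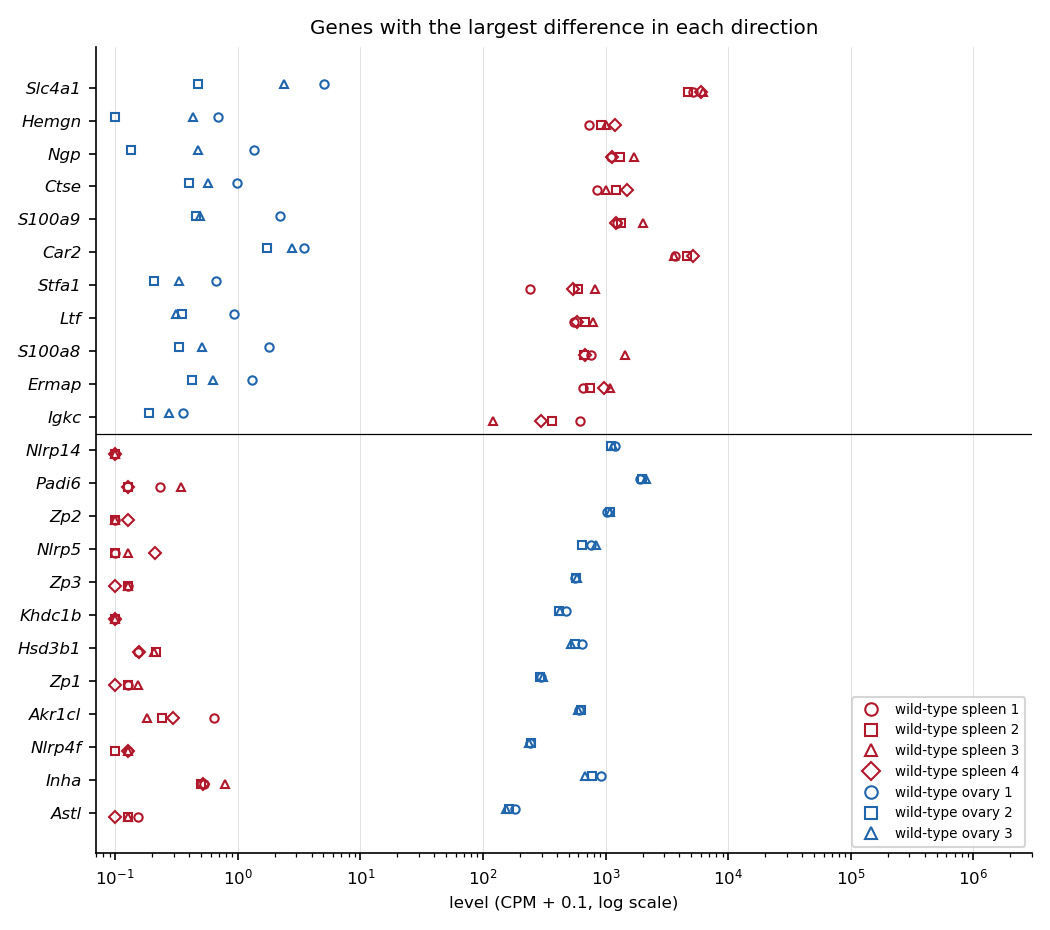
Level of the named genes with the largest differences in each library, as CPM + 0.1 on a logarithmic x axis, with spleens in red and ovaries in blue and 1 symbol per animal. The groups do not overlap for any of these genes, ovary 1 is the highest ovary for every gene in the upper panel, and the ovary points in the lower panel lie close together.

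Red cell genes were the most abundant markers in the spleen libraries. All 15 erythroid markers tested were called higher in spleen, with a median difference of 8.99 against −0.17 for all genes, and their summed level was 105299, 103647, 63857 and 110358 CPM in the spleens and 225 to 329 CPM in the ovaries. Spleen 3 was the lowest of the spleens. The 4 adult globin genes took 7.59%, 7.28%, 4.21% and 7.42% of the reads of the spleens and 0.0144% to 0.0245% of those of the ovaries. Hbb-bs, an adult beta globin, had 47648, 44420, 25008 and 46390 CPM in the spleens and 103, 70.8 and 108 CPM in the ovaries. Because Hba-a1 and Hba-a2, and Hbb-bs and Hbb-bt, are near-identical copies, the split of reads within each pair is uncertain. Klf1, a transcription factor required for adult globin expression, had 359 to 556 CPM in spleens and 0.393 to 0.595 CPM in ovaries. Sptb, the beta spectrin of the red cell skeleton, differed by 7.55. The transferrin receptor Tfrc, which imports iron, differed less, by 4.43, and the erythropoietin receptor Epor by 6.78. Rhag and Tspo2 had 554 and 199 CPM on average in the spleens but no row in the ovary table, and Ahsp was in neither table under that symbol.

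The enzymes that build haem were measured as a pathway of 9 genes, of which 8 were called higher in spleen and 0 in ovary (median 4.36). Alas2, the erythroid enzyme of the first step, had 2884, 2262, 1900 and 2354 CPM in the spleens and 7.70, 4.41 and 6.83 CPM in the ovaries, a difference of 8.54 ± 0.20 (SE). Its ubiquitous counterpart Alas1 had 54.0 to 60.8 CPM in the spleens and 43.9 to 70.3 CPM in the ovaries, so the groups overlapped, and the difference was 0.14. Between these steps and the end of the pathway, Cpox differed by 5.48 and Fech, the ferrochelatase that inserts iron, by 4.36. The step with the smallest difference among the called enzymes was Ppox, at 3.12.

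Promoter windows of a few members are shown because GATA1, the erythroid GATA factor, was itself among the genes higher in spleen: Gata1 had 263 to 384 CPM in the spleens and 2.15 to 3.07 CPM in the ovaries. The windows run from 250 bases before to 50 bases after the annotated start, 300 bases in all, on GRCm38.p6 as given by RefSeq. Capitals mark the letters AGATAA, or TTATCT on the other strand, the core bound by GATA factors.
Alas2 (chrX:150547167-150547466, + strand): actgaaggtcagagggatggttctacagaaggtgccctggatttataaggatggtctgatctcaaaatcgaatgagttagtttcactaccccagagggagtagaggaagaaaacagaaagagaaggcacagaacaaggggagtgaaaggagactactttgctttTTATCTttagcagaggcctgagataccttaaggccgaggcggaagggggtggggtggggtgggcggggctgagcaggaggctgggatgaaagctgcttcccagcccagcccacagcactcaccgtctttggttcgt
Hbb-bs (chr7:103827879-103828178, − strand): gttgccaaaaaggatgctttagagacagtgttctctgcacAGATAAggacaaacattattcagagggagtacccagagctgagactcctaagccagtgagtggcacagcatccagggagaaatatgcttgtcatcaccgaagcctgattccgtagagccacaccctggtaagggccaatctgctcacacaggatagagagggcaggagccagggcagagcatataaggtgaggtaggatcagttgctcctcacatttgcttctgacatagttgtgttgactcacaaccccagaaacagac
These letters stood in 4 of the 14 promoter windows of erythroid markers (28.6%), those of Alas2, Epb42, Epor and Hbb-bs, in 0 of the 16 windows of oocyte markers and in 11.2% of all 32851 windows. A match is a description of the letters and no evidence of binding.

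B cell markers were all higher in spleen, 12 of 12 tested, with a median of 7.35. Cd79a and Cd79b, the signalling chains of the B cell receptor, had 87.4 to 514 and 72.9 to 452 CPM in the spleens, and no more than 0.517 CPM in any ovary. Ighm, the heavy chain of IgM, had 1770, 982, 434 and 805 CPM in the spleens and 2.47 to 3.46 CPM in the ovaries, and the differences of Ms4a1 (CD20) and Cd79a were 7.70 and 8.73. For Cd79a, Cd79b and Ighm spleen 1 was the highest spleen and spleen 3 the lowest, yet the lowest spleen lay far above the ovaries. Ebf1, a B lineage transcription factor that is also made by mesenchymal cells, differed least, by 2.34, with 6.501 to 7.653 CPM in the ovaries. Ighd and Fcrla had 88.7 and 68.1 CPM on average in the spleens and no row in the ovary table.

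Of 7 plasma cell markers 3 had no ovary row, and the 4 tested did not follow the B cells. None of the 4 tested was called higher in spleen, and 2 were called higher in ovary: Sdc1, the proteoglycan syndecan-1 that epithelia also carry, by −4.31 and Derl3, which acts in protein export from the endoplasmic reticulum, by −3.81. Xbp1, a secretory-cell transcription factor, was at 93.4 to 114 CPM in the spleens and 104 to 105 CPM in the ovaries. Jchain and Mzb1, which have no row in the ovary table, had 25.5 and 52.3 CPM on average in the spleens. The list as a whole was therefore not compared.

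T cell markers were higher in spleen for 7 of 8 tested (median 4.47). Lck, the kinase of T cell receptor signalling, had 71.9, 59.3, 32.1 and 61.1 CPM in the spleens and 1.84 to 2.14 CPM in the ovaries, and Cd4 and Cd3g, a coreceptor and a receptor chain, differed by 4.596 and 6.41. Lef1, a transcription factor of T cells that other tissues share, differed by 2.98. The exception was its relative Tcf7, with 33.2 to 99.8 CPM in the spleens and 47.6 to 52.9 CPM in the ovaries, a difference of 0.33 that did not pass the test. Of 11 natural killer and cytotoxic markers, only Klrb1c had a row in both tables, with a difference of 3.47. Among the other 10 the highest in the spleens were Nkg7 at 16.3 and Ccl5 at 13.96 CPM on average. Cd8a, Cd3e and Cd5, also without an ovary row, had 27.3, 20.6 and 16.1 CPM.

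Among myeloid cells, all 8 neutrophil granule genes tested were higher in spleen, with a median of 9.49, the highest of any cell type list with at least 3 members tested. Prtn3, a serine protease of primary granules, had 152 to 205 CPM in the spleens and 0.526 to 0.543 CPM in the ovaries, and Lcn2, an iron-binding protein of secondary granules, differed by 8.69. S100a8 and S100a9 had 1429 and 2017 CPM in spleen 3, above 672 to 763 and 1219 to 1329 CPM in the other spleens. Elane, Mpo, Ctsg, Camp, Mmp8 and Chil3 could not be compared, having no ovary row, and averaged 147, 369, 61.2, 634, 36.7 and 248 CPM in the spleens.

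Macrophage and iron recycling genes were higher in spleen for 15 of 15 (median 4.59). Vcam1, an adhesion molecule of red pulp macrophages, had 657, 702, 359 and 505 CPM in the spleens and 6.11 to 15.6 CPM in the ovaries, Hmox1, which breaks down haem, differed by 3.97, Slc40a1, the iron exporter ferroportin, by 2.24 and Csf1r, the receptor for macrophage colony-stimulating factor, by 4.41. Spic, a transcription factor of red pulp macrophages, had 35.9 to 65.1 CPM in the spleens and 0.155 to 0.234 CPM in the ovaries. Mertk, a receptor for dying cells, differed by 1.13 and was not called when libraries were scaled to total reads (0.53). Dendritic cell markers gave 4 calls in spleen of 6 tested, among them Flt3 (5.001) and Itgax (4.89). Zbtb46, a dendritic and endothelial transcription factor, was lower in every spleen, at 31.5 to 41.6 CPM against 61.5 to 71.2 CPM in the ovaries, a difference of −0.87 that became a call under total reads (−1.47).

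All 10 megakaryocyte and platelet genes tested were higher in spleen (median 6.03). Pf4, platelet factor 4, had 171, 284, 109 and 239 CPM in the spleens and 2.47 to 3.75 CPM in the ovaries, Itga2b, the platelet integrin alpha chain, differed by 6.12, and its partner Itgb3, which other cells make too, by 1.67. Vwf, made by megakaryocytes and endothelium alike, differed by 2.85. Mast cell and basophil markers were split, with 3 of 7 called in spleen, Prss34 (4.23), Ms4a2 (2.48) and Hdc (1.39), with a median of 0.30 that became −0.30 under total reads, where Hdc was not called (0.80). The mast cell proteases Cma1 and Tpsb2 differed by −1.02 and −1.10 without passing the test (−1.61 and −1.69, called, under total reads), their spleen levels running from 1.64 to 9.43 and from 1.93 to 11.9 CPM with spleen 1 the lowest. Without spleen 3, and with the replicate block, 2 members of the list were called in ovary.

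Programmes that span these cells moved with them. MHC class II presentation genes were called in spleen for 9 of 9 (median 5.27). Cd74, the invariant chain, had 2100, 1201, 426 and 963 CPM in the spleens and 4.45 to 7.81 CPM in the ovaries, and H2-Ab1, H2-Aa and H2-Eb1, the classical chains, differed by 6.07, 6.92 and 6.23. MHC class I genes, which nearly all cells use, differed less: 9 of 11 were called in spleen with a median of 2.31. H2-D1 and B2m differed by 2.43 and 2.27, Tapbp, which loads peptide, by 1.61, and Psmb8, an immunoproteasome subunit, by 4.12. H2-K1 had 291 to 664 CPM in the spleens and 182 to 255 CPM in the ovaries, a difference of 0.97 just short of a call, and Nlrc5, an activator of class I genes, at 1.17, lost its call with total reads (0.58). Leukocyte integrins and adhesion proteins were called in spleen for 11 of 11 (median 5.83), among them Ptprc (CD45, 6.79), Itga4 (4.96), Spn (CD43, 5.83) and Cd44 (3.46).

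Haematopoietic transcription factors were called in spleen for 19 of 21 (median 6.16). Tal1, Lmo2 and Zfpm1, partners of GATA1 in red cell precursors, had 513 to 639, 425 to 607 and 488 to 727 CPM in the spleens and differed by 7.36, 5.91 and 4.72. Ikzf1, a lymphoid zinc finger factor, differed by 7.63, Spi1 (PU.1), of myeloid and B cells, by 5.77 and Myb, of progenitors, by 7.32. Runx1 was the other factor besides Tcf7 that was not called, with 44.7 to 50.5 CPM in the spleens and 30.1 to 31.4 CPM in the ovaries, a difference of 0.66 with no overlap between tissues. Gfi1b and Pou2af1 averaged 153 and 91.0 CPM in the spleens and had no ovary row.

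The fixed tissue of the spleen stood out less. Of 6 stromal and organiser genes tested, 3 were called in spleen and 2 in ovary, with a median of 0.19 that became −0.39 under total reads. Stab2, the hyaluronan scavenger receptor of sinus endothelium, had 205, 204, 200 and 196 CPM in the spleens and 0.740 to 1.41 CPM in the ovaries, a difference of 7.60 ± 0.19 (SE). Madcam1, an addressin for lymphocytes, differed by 4.53, and Barx1, a homeobox factor, by 1.15, which fell to 0.61 without a call under total reads. Tcf21, a transcription factor needed to form a spleen, was higher in ovary, by −1.28. Tlx1, Nkx2-5 and Nkx2-3, homeobox factors of spleen development, had no ovary row and averaged 54.9, 15.6 and 40.1 CPM in the spleens, Cxcl13, a B cell attractant, 86.2 CPM and Ccl19 0.863 CPM, while Ccl21a was at 0 in every spleen.

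**Figure D3:**
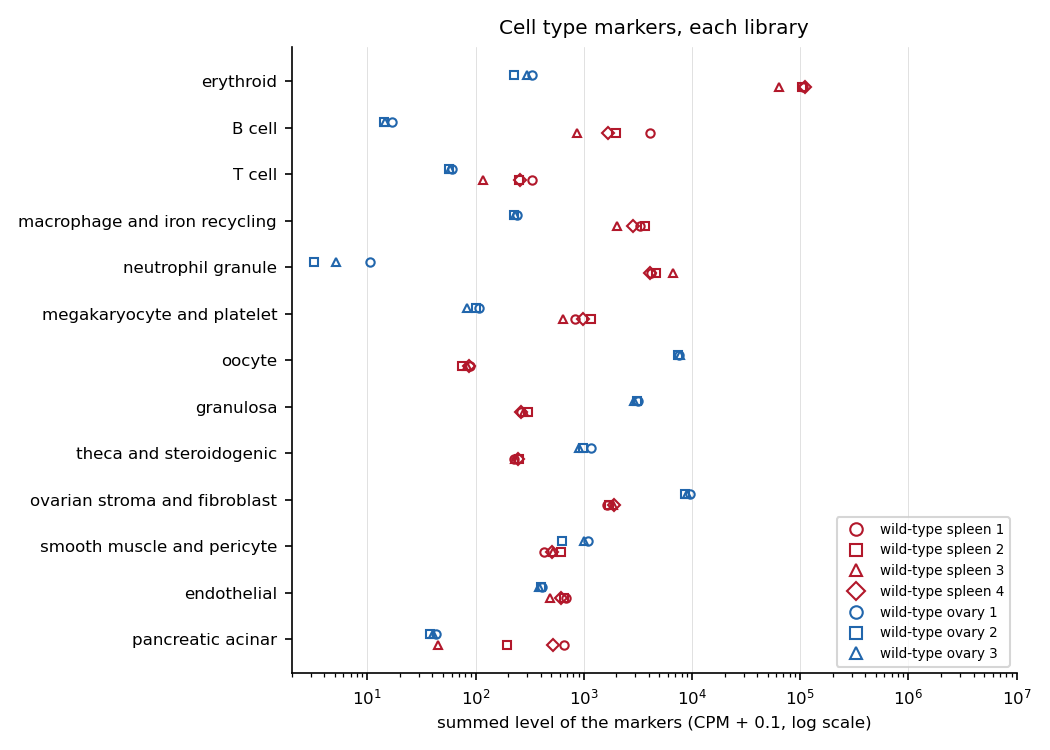
Summed level of the members of 13 cell type lists in each library, as CPM + 0.1 on a logarithmic x axis, with spleens in red and ovaries in blue. Blood cell lists lie to the right in the spleens and oocyte and follicle lists to the right in the ovaries, the endothelial and smooth muscle lists lie close together, and spleen 3 falls near the ovaries for pancreatic acinar genes at 45.03 CPM.

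Oocyte markers were called in ovary for 19 of 19, with a median of −9.79 and a summed level of 7418 to 7826 CPM in the ovaries against 74.5 to 88.0 CPM in the spleens. Most of the spleen sum came from a single member, the receptor tyrosine kinase Kit, which blood progenitors also carry and which had 66.3 to 79.1 CPM in the spleens and 158 to 195 CPM in the ovaries. Gdf9, a growth factor that the oocyte sends to granulosa cells, had 504, 440 and 439 CPM in the ovaries and 0.245 to 0.617 CPM in the spleens. H1foo, the oocyte linker histone, and Zar1, a maternal factor, had 101 to 113 and 142 to 159 CPM in the ovaries and 2 and 3 reads over all spleens. Ddx4, a germ cell RNA helicase, differed by −4.18. The zona pellucida and subcortical maternal complex genes were called in ovary for 10 of 10 and had the lowest median of any list, −10.60. That list shares members with the oocyte list, Padi6 and Zp3 among them, so the counts are not independent. Nlrp, Oog and Khdc genes have close paralogs, and their reads may be shared among copies.

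Promoter windows of an egg coat gene and of Padi6 are printed because FIGLA, the oocyte factor that acts on zona genes through E-boxes, was itself higher in ovary: Figla had 18.4, 25.2 and 27.5 CPM in the ovaries and no read in the spleens. Capitals mark the letters CAGGTG, or CACCTG on the other strand, which are only 1 form of E-box. Other forms, such as CACGTG in the Zp3 window and CAGCTG in both windows, were not searched for and stay in lower case.
Zp3 (chr5:135979855-135980154, + strand): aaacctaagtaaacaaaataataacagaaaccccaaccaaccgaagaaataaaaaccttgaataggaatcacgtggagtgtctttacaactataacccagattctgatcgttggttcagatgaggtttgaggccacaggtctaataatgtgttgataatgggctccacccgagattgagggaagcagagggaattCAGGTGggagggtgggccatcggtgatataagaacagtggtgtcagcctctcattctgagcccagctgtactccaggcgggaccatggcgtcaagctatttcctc
Padi6 (chr4:140742594-140742893, − strand): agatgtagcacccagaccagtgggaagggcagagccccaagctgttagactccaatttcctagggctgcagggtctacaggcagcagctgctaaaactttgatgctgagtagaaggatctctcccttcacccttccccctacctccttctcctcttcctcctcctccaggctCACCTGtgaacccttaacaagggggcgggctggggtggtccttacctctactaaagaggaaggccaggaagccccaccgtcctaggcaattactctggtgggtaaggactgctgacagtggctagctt
The letters CAGGTG or CACCTG stood in 5 of 16 promoter windows of oocyte markers (31.2%), those of Oog1, Oosp1, Padi6, Zar1 and Zp3. They stood in 1 of 14 windows of erythroid markers (7.14%) and in 20.2% of all windows, the windows having the same length and build as above. These shares do not cover E-boxes of other letters. Zp2 and Slc4a1 had no window in the table used.

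Meiosis genes gave 6 calls in ovary and 1 in spleen of 10 tested (median −2.75). Sycp3 and Sycp1, of the synaptonemal complex, had 19.4 to 29.0 and 12.2 to 17.1 CPM in the ovaries and no more than 0.136 CPM in any spleen. Smc1b, the meiotic cohesin subunit, differed by −6.11, and Sycp2 by −4.48. The cohesin subunits Rec8 and Stag3 overlapped between the organs, with 8.51 to 11.6 and 5.74 to 8.85 CPM in spleens against 7.79 to 9.70 and 5.71 to 7.92 CPM in ovaries. Msh5, a mismatch repair homologue of meiotic crossing over, was the member higher in spleen, at 6.76 to 11.496 against 2.59 to 4.22 CPM, a difference of 1.38 that fell to 0.78 under total reads.

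Granulosa cell genes were called in ovary for 17 of 18 (median −6.68). Foxl2, the transcription factor that maintains granulosa identity, had 144, 140 and 129 CPM in the ovaries and 1 read over all spleens. Amh, anti-Müllerian hormone of small growing follicles, had 379, 309 and 322 CPM in the ovaries and 0.322 to 0.396 CPM in the spleens, a difference of −9.56 ± 0.14 (SE). Inhbb, the inhibin beta B subunit, had 345, 499 and 457 CPM in the ovaries and differed by −5.96, while Fshr, the receptor for follicle-stimulating hormone, had 6.79 to 8.53 CPM and no spleen read. Cyp19a1, the aromatase that makes oestradiol, was at 8.49 to 11.6 CPM in the ovaries with 2 reads over the spleens. Kitl, the ligand of KIT that stroma of blood-forming organs also makes, differed by only −1.23, and Gatm, of creatine synthesis, by −0.83, short of a call.

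Theca and steroidogenic genes gave 9 calls in ovary of 13 tested (median −4.19). Cyp17a1, which makes androgens, had 34.6, 7.79 and 6.21 CPM in the ovaries and 6 reads over all spleens, and ovary 1 stood above the other ovaries for Cyp11a1, the first enzyme of steroid synthesis, as well, at 61.8 against 29.4 and 23.8 CPM. Nr5a1, the steroidogenic factor SF-1, had 114 to 128 CPM in the ovaries and 26.9 to 37.9 CPM in the spleens, and Fdxr, which passes electrons to these enzymes, differed by −1.30. Star, which carries cholesterol into mitochondria, ran the other way without a call, at 21.3 to 38.4 CPM in the spleens and 14.9 to 26.5 CPM in the ovaries (0.79). Scarb1, the receptor for high density lipoprotein, had 114 to 150 and 115 to 131 CPM. Insl3, a theca hormone, was below 1 CPM in every library.

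Transcription factors of the gonad were called in ovary for 22 of 24 (median −5.93). Gata4 and Wt1, of gonadal somatic cells, had 267 to 302 and 243 to 265 CPM in the ovaries and differed by −9.62 and −3.91. Nr5a2, a nuclear receptor needed for ovulation, had 284, 213 and 189 CPM in the ovaries and 0.409 to 0.805 CPM in the spleens. Figla and Tbpl2, of oocytes, had no spleen read. Nr2f2, of stroma, had 57.4 to 76.4 CPM in the spleens and 121 to 139 CPM in the ovaries (−0.91), and with Runx1 made up the factors not called. The receptor of AMH was a further member of the follicle programme, Amhr2 having 168, 175 and 173 CPM in the ovaries and 0 to 0.452 CPM in the spleens, and its promoter window is shown with the letters AAGGTCA, the core bound by SF-1 and related receptors (TGACCTT on the other strand), in capitals.
Amhr2 (chr15:102445117-102445416, + strand): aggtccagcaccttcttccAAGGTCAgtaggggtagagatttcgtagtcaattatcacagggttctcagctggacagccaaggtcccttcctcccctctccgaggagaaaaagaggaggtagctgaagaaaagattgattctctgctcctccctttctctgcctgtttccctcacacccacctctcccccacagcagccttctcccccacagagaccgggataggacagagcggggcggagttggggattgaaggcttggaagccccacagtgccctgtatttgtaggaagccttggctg
Amhr2 was the only granulosa marker with these letters, in 1 of 17 windows (5.88%). They were in 0 of 12 windows of theca and steroidogenic genes, in 0 of 16 of oocyte markers, in 1 of 14 of erythroid markers (7.14%) and in 4.72% of all windows.

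Secreted signals of the TGF-beta superfamily, through which oocyte and granulosa cells exchange instructions, were called in ovary for 17 of 23 and in spleen for 3 (median −3.46). A further 2 members had no ovary row, 1 of them at a mean of 1 CPM or more in the spleens. Inha, Gdf9 and Amh are given above, Bmp15, the partner of GDF9, had 62.2, 45.8 and 41.0 CPM in the ovaries and 5 reads over the spleens, and Fst, the secreted inhibitor follistatin, differed by −7.11. The 3 in spleen were Tgfb1 (233 to 357 against 16.9 to 17.9 CPM, 4.13), Lefty1 (2.83) and Bmp2 (1.41, or 0.81 and not called with total reads). The transforming growth factors were thus divided, Tgfb2 and Tgfb3 being higher in ovary by −3.51 and −3.46. Among their receptors and Smads, 13 of 22 were called in ovary and 1 in spleen (median −1.53). Bmpr1b, a receptor of granulosa cells, differed by −7.48, Bmpr1a and Bmpr2 by −2.81 and −2.30, Smad3 by −2.22 and Smad5 by −1.58. Eng (endoglin), of endothelium, was the member called in spleen, at 131 to 158 against 70.4 to 72.4 CPM, 1.04 on the log2 scale and 0.44 under total reads.

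Wnt ligands and modulators were called in ovary for 14 of 21 and in spleen for 1 (median −2.14). Another 10 members had no ovary row, 1 of them at a mean of 1 CPM or more in the spleens. Wnt4, which directs ovary development, had 94.06, 90.02 and 86.03 CPM in the ovaries and 0.256 to 0.819 CPM in the spleens. Rspo2, an R-spondin made by oocytes, had 46.9 to 57.4 CPM in the ovaries and a difference of −8.83, Sfrp1 and Dkk3, secreted modulators, differed by −2.07 and −3.45, and Wnt6 by −4.02. Wnt10b was the member called in spleen, at 0.2997 to 1.34 against 0.155 to 0.370 CPM, and overlapped between the tissues. Its call was lost under total reads (0.83), with a pseudocount of 1, with females only, without ovary 1, without ovary 2 and without spleens 1 and 4. Hox genes, which mark position along the body, were called in ovary for 18 of 29 and in spleen for 0 (median −1.30), or for 11 with a pseudocount of 1 (median −0.67). All 6 Hoxc and 6 Hoxd genes tested were called, from −2.71 for Hoxd11 to −7.65 for Hoxd9, against 6 of the 17 Hoxa and Hoxb genes, of which Hoxa5, Hoxa9 and Hoxb4 had values of 0.72, 0.67 and 0.95. Hoxd3, Hoxd10 and Hoxd11 had no read in any spleen.

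**Figure D4:**
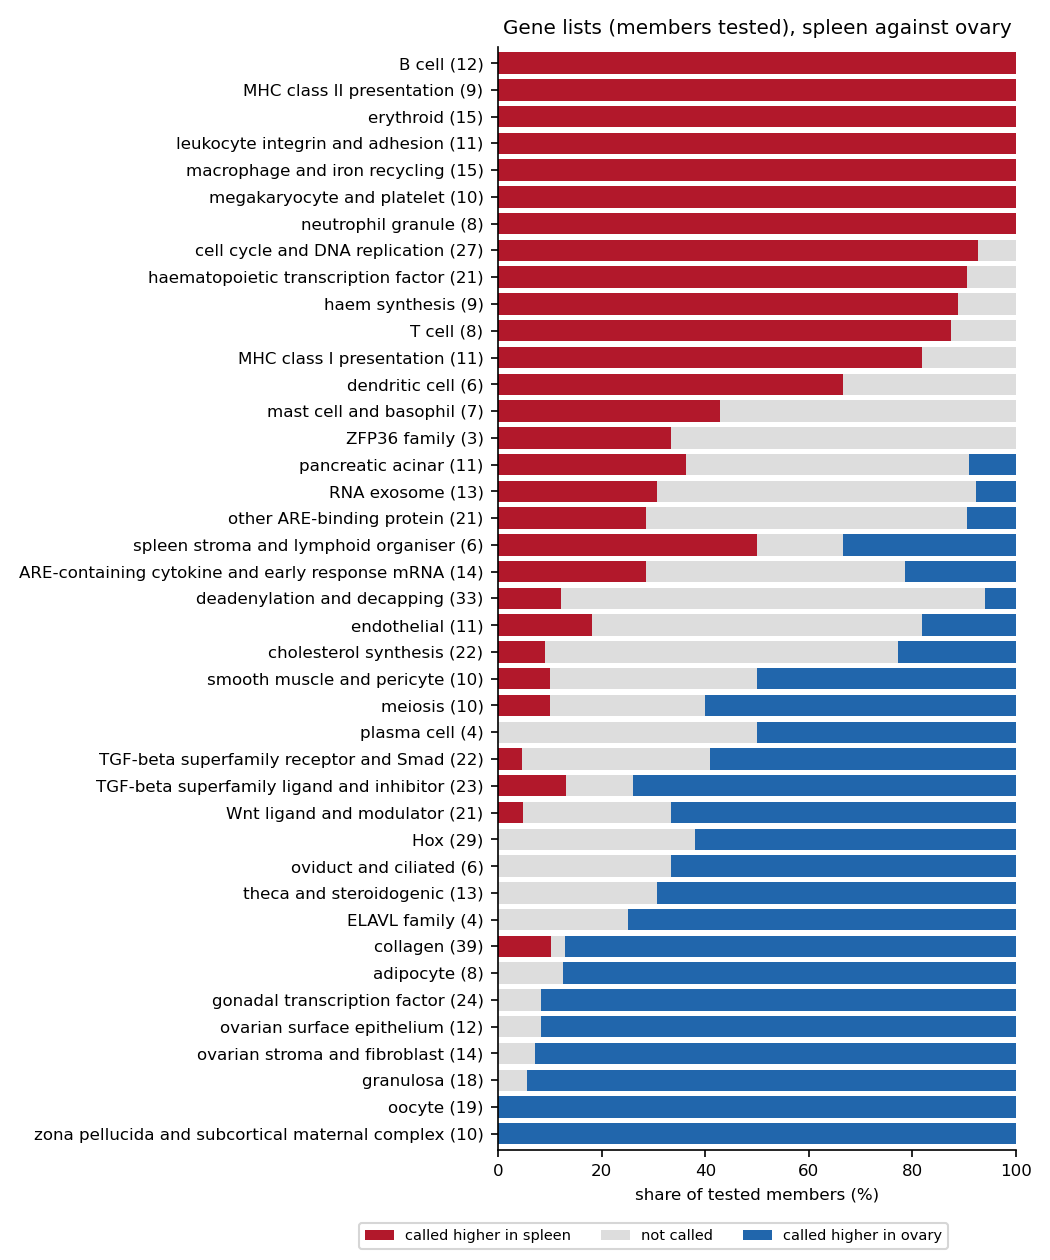
Share of tested members called higher in spleen (red), not called (grey) and called higher in ovary (blue) for the 41 gene lists with at least 3 members tested, with the number tested in brackets. Over all genes tested the shares are 20.1% and 32.6%. Members without an ovary row, plasma cell markers among them, are not counted. Most lists of blood cells are mainly red, except plasma cells (0 of 4) and mast cells (3 of 7), lists of oocyte and granulosa genes are mainly blue, and the lists of messenger RNA decay are mostly grey.

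Connective tissue was richer in the ovary. Stromal and fibroblast genes were called in ovary for 13 of 14 (median −2.56) and collagens for 34 of 39, with 4 collagens called in spleen (median −2.46). Col1a1, Col1a2, Col3a1, Col5a1 and Col6a1 of the stromal list are themselves collagens, so these counts are not independent. Col3a1, a fibrillar collagen, had 508, 473, 639 and 578 CPM in the spleens and 2718, 2318 and 2537 CPM in the ovaries, and Col1a2, Col1a1 and Col6a1 differed by −2.19, −2.23 and −3.99. Lum, the proteoglycan lumican, differed most of the stromal list, by −6.11. Col14a1 was higher in spleen, with 190 to 226 CPM against 15.8 to 37.9 CPM, a difference of 2.87, and Col28a1 differed by 3.10. The other 2, Col11a2 (1.33) and Col7a1 (1.03), lost their calls under total reads.

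Surface epithelium markers were called in ovary for 11 of 12 (median −2.97), the most abundant being Wt1, Upk3b (−2.53), Krt8 (−4.76) and Krt19 (−3.88). Wt1 also counts in the stromal list and among the gonadal factors. Msln, mesothelin, which the covering of the spleen also makes, was at 12.5 to 27.1 CPM in the spleens and 10.1 to 10.9 CPM in the ovaries. Smooth muscle and pericyte genes gave 5 calls in ovary and 1 in spleen of 10 (median −1.12). Myh11, the smooth muscle myosin, had 245, 115 and 221 CPM in the ovaries and 29.1 to 45.6 CPM in the spleens, with ovary 2 the lowest, and Actg2, Rgs5 and Cnn1 differed by −1.51, −3.60 and −1.70. Des, desmin, was called in spleen at 1.28 and lost the call under total reads (0.67) and without ovary 2.

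Endothelial genes, shared by all organs, were near even: 2 of 11 called in spleen, 2 in ovary and a median of 0.36, which became −0.25 under total reads. Without spleen 3, 4 were called in spleen, and without ovary 1 or ovary 2, 3 were. Cdh5, VE-cadherin, had 83.1 to 109 CPM in the spleens and 96.4 to 107 CPM in the ovaries. Pecam1 (1.25) and Tie1 (1.13) were the calls in spleen, each lost under total reads, and Emcn (−1.77) and the lymphatic marker Lyve1 (−2.86) the calls in ovary. Lists for tissue that lies beside the ovary were called mostly in ovary at low levels. Adipocyte genes gave 7 calls of 8 (median −2.78), or 3 with a pseudocount of 1 (median −0.99), among them the lipid droplet protein Plin1 at 9.25 to 13.4 CPM, and oviduct and ciliated genes gave 4 of 6 (median −2.33), Tppp3, Pax8, Foxj1 and Tekt1, with Ovgp1, the oviduct glycoprotein, between 0.370 and 1.17 CPM over all libraries and not called.

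Genes of dividing cells were higher in spleen for 25 of 27 (median 2.10), against a background of 20.1%. Mki67 had 1599, 1583, 2516 and 2038 CPM in the spleens and 207, 216 and 187 CPM in the ovaries, a difference of 3.22 ± 0.17 (SE). Rrm2, the ribonucleotide reductase subunit made in S phase, differed by 3.86, Top2a, a topoisomerase of condensing chromosomes, by 1.88 and Pcna, the replication clamp, by 2.48. Bub1 and Bub1b, of the spindle checkpoint, differed by 0.73 and 0.78 and were not called. With total reads 24 of the 27 were called in spleen and the median remained positive.

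Cholesterol synthesis, which feeds steroid production, was not divided strongly: 5 of 22 genes were called in ovary and 2 in spleen, with a median of −0.58. Hmgcs1 and Insig1, both controlled by sterols, differed by −1.44 and −2.09, Hsd17b7 by −2.07 and Sc5d by −1.003. Ebp (1.84) and Srebf2 (1.01) were higher in spleen, the latter only with TMM scaling (0.41 under total reads). With total reads 13 of the 22 were called in ovary, and without spleen 3 or without ovary 1 only 3 were. Calls in spleen numbered 1 without spleen 1 and 3 without ovary 2.

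Housekeeping genes were not level between the organs. All 18 were higher in every spleen than in any ovary, with a median of 0.80 and 8 called, and under total reads the median was 0.19 with 4 called. Actb had 3538 to 6350 CPM in the spleens and 1105 to 1208 CPM in the ovaries (2.22), Gapdh 775 to 851 and 490 to 512 CPM (0.70), Hprt differed by 1.89 and Tbp by 0.39. Tfrc, at 4.43, also belongs to the erythroid list. Of 12 mitochondrially encoded genes, 3 were called in ovary and 1 in spleen (median −0.27). These genes took 0.631% to 1.60% of the spleen reads, the highest being spleen 3, and 1.06% to 1.85% of the ovary reads.

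The ZFP36 family itself differed in order between the organs. Zfp36l2 (ENSMUSG00000045817, chr17:84183931-84187947) had 210, 134, 176 and 122 CPM in the spleens and 103, 105 and 101 CPM in the ovaries. Every spleen was above every ovary, but the difference of 0.61 ± 0.17 (SE, limma adjusted p 0.00892) was short of a call. It was 0.004 with an adjusted p of 0.985 in limma when libraries were scaled to total reads, so no direction held across scalings. Zfp36 (tristetraprolin), the member best known for destabilising inflammatory messengers, had 61.8, 41.4, 26.8 and 36.1 CPM in the spleens and 6.95, 7.43 and 6.75 CPM in the ovaries, and was the only member called, at 2.48. Zfp36l1 had 59.2 to 96.8 CPM in the spleens and 107 to 124 CPM in the ovaries, a difference of −0.51 that passed the limits of a call under total reads alone (−1.11). The fourth member, Zfp36l3, had no row in the ovary table and 0.0136 CPM on average in the spleens.

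Per kilobase of exon, Zfp36l2 was the highest member in the spleens, with a mean of 45.5 CPM per kilobase against 27.2 for Zfp36l1 and 11.97 for Zfp36. In the ovaries Zfp36l1 came first with 38.0, followed by Zfp36l2 with 29.2 and Zfp36 with 2.03 CPM per kilobase. Zfp36l2 was above Zfp36l1 in 4 of 4 spleens and below it in 3 of 3 ovaries. Read as single values, 4 spleens against 3 ovaries allow 35 groupings, and the exact permutation test (two-sided) gave 0.0571 for each of these 3 genes, the smallest p that design can give.

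ELAVL proteins bind AREs too and mostly stabilise their targets. Elavl1 (HuR), made in all cells, had 128, 167, 116 and 147 CPM in the spleens and 73.0, 68.4 and 70.0 CPM in the ovaries, a difference of 0.97 just under the limit of a call, which it passed without spleen 1 (1.01) or without spleen 3 (1.08). Elavl1 was called in DESeq2 and without spleens 1 and 4 as well, but not in edgeR or under total reads. The members known from neurons and germ cells were on the ovary side. Elavl2 had 86.7 ± 5.05 CPM (SD, n = 3) in the ovaries and 0.0839 ± 0.0771 CPM (SD, n = 4) in the spleens, from 12744 and 12 reads, a difference of −8.96. Elavl3 followed at −5.67 and Elavl4, at 1.57 CPM on average in the ovaries, at −2.60. In each of these the groups did not overlap.

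**Figure D5:**
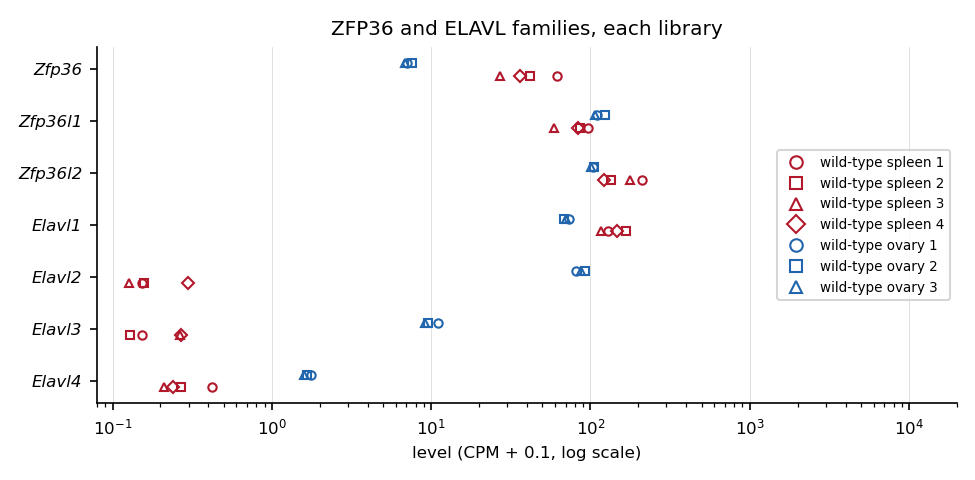
Level of each ZFP36 and ELAVL family member in each library, as CPM + 0.1 on a logarithmic x axis, with spleens in red and ovaries in blue. All members shown separate by tissue, though Zfp36l1, Zfp36l2 and Elavl1 were not called. Zfp36l2 lies at 122 to 210 CPM in the spleens and 101 to 105 CPM in the ovaries, and Elavl2 lies near 0 in the spleens.

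The rest of the decay machinery gave few calls. Of 33 genes of deadenylation and decapping, 4 were called in spleen and 2 in ovary (median 0.24, or −0.36 under total reads), against background shares of 20.1% and 32.6%, and 4 and 6 under total reads. Cnot1, the scaffold of the CCR4-NOT complex that ZFP36 proteins recruit, had 184 to 296 CPM in the spleens and 292 to 362 CPM in the ovaries, and the catalytic subunits Cnot7 and Cnot6l differed by −0.67 and 0.27. The 4 in spleen were the poly(A) binding proteins Pabpc1 (3715 to 4064 against 685 to 745 CPM, 2.44) and Pabpc4 (2.19) and the antiproliferative factors Btg1 (2.04) and Btg2 (3.51), all called under total reads as well. The 2 in ovary were oocyte forms of these proteins: Btg4, needed for clearance of maternal messengers, had 22.8 to 29.9 CPM in the ovaries and 0.0268 to 0.113 CPM in the spleens, and Pabpc1l, the oocyte poly(A) binding protein, had 27.6 to 31.9 and 0.678 to 1.09 CPM. Of 13 RNA exosome genes, 4 were called in spleen (Exosc3, Exosc5, Exosc7 and Exosc8, from 1.17 to 1.69) and Ttc37 in ovary (−1.03), with Exosc3 alone called in spleen under total reads, where the median went from 0.55 to −0.05. The call of Ttc37 was lost without spleen 2, without spleen 4 or without ovary 1, and also with females only, with a pseudocount of 1, in DESeq2 and without spleens 1 and 4.

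Other ARE-binding proteins gave 6 calls in spleen and 2 in ovary of 21 (median 0.56, or −0.04 under total reads). Zc3h12d, a lymphocyte RNA-binding factor, had 29.9, 17.2, 8.96 and 14.2 CPM in the spleens and 0.117 to 0.322 CPM in the ovaries, Zc3hav1, an antiviral RNA-binding protein, differed by 1.90, and Zc3h12a (regnase-1), a nuclease for inflammatory messengers, by 2.08. Hnrnpab (1.13), Khsrp (1.49) and Hnrnpd (AUF1, 1.08) lost their calls under total reads. Igf2bp2, a messenger-binding protein of growing cells, had 146 to 151 CPM in the ovaries and 3.65 to 6.62 CPM in the spleens, and Zc3h12c differed by −1.84. Among 26 cytokine and early response messengers known for AREs, 12 could not be compared, Tnf, Il1b and Il6 among them, which averaged 1.99, 2.49 and 0.111 CPM in the spleens. Of the 14 tested, Mcl1 (1.68), Dusp1 (3.42), Junb (3.02) and Ier3 (1.69) were called in spleen and Lhcgr (−5.80), Egr1 (−1.37) and Cxcl1 (−1.35) in ovary, the median being 0.37, or −0.195 under total reads.

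Variation between animals was larger among the spleens. Over genes of at least 10 CPM, the median SD of log2 level was 0.188 among the 4 spleens, which are of both sexes, and 0.0712 among the 3 ovaries. The median range, which grows with the number of libraries, was 0.42 and 0.14. A range above 2 was found for 63 of 9753 genes in the spleens and 3 of 10416 in the ovaries. Of these 63 genes, 56 were highest in spleen 1 and lowest in spleen 3, and 11 were in the B cell list. The summed B cell level was 4100, 1999, 867 and 1685 CPM, that of macrophage genes 3342, 3685, 2018 and 2831 CPM, and that of neutrophil granule genes 4150, 4626, 6626 and 4132 CPM, so that spleen 3 was the lowest for the former lists and the highest for the latter.

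Digestive enzymes of the pancreas, which lies against the spleen, had the widest ranges apart from the X-inactivation transcript Xist, which followed the sex labels. Pnliprp1, a pancreatic lipase-related protein, had 171, 39.7, 0.218 and 134 CPM in the spleens and 4.08 to 6.40 CPM in the ovaries. Ctrb1, chymotrypsinogen, had 155, 47.0, 0.2997 and 141 CPM and Cela2a, an elastase, 62.2, 10.2, 0.0545 and 40.2 CPM in the spleens, with at most 1.07 and 0.339 CPM in the ovaries. Summed over the acinar list, the spleens had 655, 196, 45.03 and 522 CPM and the ovaries 37.7 to 43.4 CPM, and most of the sum in spleen 3 was Cela1 (43.7 CPM), which blood cells also make. The list gave 4 calls in spleen (Cela1, Cela2a, Ctrb1 and Ctrl) and 1 in ovary (Pnlip) of 11 tested. In edgeR and in DESeq2 it gave 7 calls in spleen, and with females only it gave 1. Without spleens 1 and 4 it gave 1 call in spleen and 3 in ovary, and without spleen 3 it gave 8 in spleen. Leaving out any other single library left 1 or 2 calls in spleen. Over the whole comparison, leaving out spleens 1 and 4 gave 3664 genes called in spleen and 5744 in ovary, an alternative chosen after seeing the data. The part of pancreatic transcripts in other results was not tested.

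Among the ovaries, Cyp17a1 had the widest range, followed by a mitochondrial transfer RNA (mt-Tn), a predicted gene (Gm47283) and Egr1, an immediate early transcription factor with 41.3, 100 and 25.9 CPM. Muscle genes varied as a group, Des with 47.9, 12.5 and 45.3 CPM, Actg2 with 77.8, 25.1 and 78.9 CPM and Cnn1 with 56.7, 18.6 and 55.2 CPM, ovary 2 being the lowest each time. The summed level of the oocyte list varied little, at 7532, 7418 and 7826 CPM, but a sum does not show how single members varied. Nlrp5 had 757, 643 and 834 CPM in the ovaries, whereas Zp3 had 563, 568 and 582 CPM.

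A further 30712 genes had rows for the spleens alone and could not enter the comparison. They held 0.919% to 1.01% of the spleen reads, 14792 had at least 1 read and 138 reached 10 CPM on average. The 8 highest were blood genes in the main: Camp, a neutrophil antimicrobial peptide (634 CPM), Rhag (554), BC100530 (485) and Gm5483 (292) of the stefin family, Ppbp, a platelet chemokine (431), Car1, a carbonic anhydrase (402), Mpo, myeloperoxidase (369), and Cldn13, a claudin (322). The comparison therefore leaves out genes that had few reads in the ovaries.

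Position and gene class were looked at last, as descriptions that the calls did not use. On the X chromosome 46.7% of 651 genes tested were called in ovary and 14.6% in spleen, with a median of −0.87, whereas on chromosome 19, the only one with more calls in spleen, 23.7% and 24.9% of 570 genes were called with a median of 0.19. Long intergenic RNAs were called in ovary for 50.4% and in spleen for 12.03% of 557, protein-coding genes for 31.5% and 20.6% of 15325, and processed pseudogenes for 22.8% and 42.0% of 381. Pseudogene counts rest on reads that near-identical parents may share. Genes without an ovary row could not be called in spleen, among them the long intergenic RNA Redrum (53.9 CPM on average in the spleens). The shares therefore cover only genes with an ovary row, and the effect of that limit on each class was not tested.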

How the data were processed

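Polyadenylated RNA from 4 wild-type spleens and 3 wild-type ovaries, 1 animal per library, was sequenced after NEBNext Ultra II library preparation. Per the submitters' processing notes and the study's methods, reads were trimmed with Trimmomatic 0.36, aligned to GRCm38 with STAR 2.5.2b, and unique exonic reads were counted by strand with featureCounts of Subread 1.5.2. For the spleens the authors deposited raw counts per gene. For the ovaries the authors deposited signal values, counts divided by a size factor from DESeq2, which were turned into whole reads by dividing each column by its lowest value above 0 (0.836 to 1.22 per read, 100% of values whole within 0.001). Columns of the authors' own comparisons were not used, and no per-sample column was left unassigned. L2-cKO libraries entered only the check of Zfp36l2.

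The 18603 shared genes were scaled together by TMM (edgeR 4.0.16), and genes with at least 10 reads in at least 3 of 7 libraries were tested with limma 3.58.1 (trend) on log2(CPM + 0.1) in R 4.3.3. The fold change understates low genes. P-values were adjusted by Benjamini-Hochberg over all genes tested, and calls used the limits of 0.05 and, for the log2 difference in either direction, 1. Depth was 31052510 to 44388566 reads per library, and limits for counts of 0 cover counting error only. Genes named were the 12 with the largest differences in each direction (libraries not overlapping, mean of 50 CPM or more), the 4 most abundant called members of each list, members called the other way or missing, the 8 with the widest range in each tissue and the 8 highest spleen-only genes, and further members were named after their values were seen. The members and lists were chosen with earlier results of these data known. Alternatives were edgeR's quasi-likelihood test, DESeq2 1.42.0 and its size factors, total reads, other filters and pseudocounts, females only, each library left out, and a replicate block. The same replicate numbers occur in both tissues but on different animals, and correlations of deviations between same-numbered libraries lay between −0.1357 and 0.049, so they pair nothing. The scripts were tested on simulated data. Figures and tables used Python 3.11.15, pandas 2.3.3, numpy 2.4.6, scipy 1.17.1 and matplotlib 3.10.9. Gene positions are from GENCODE on GRCm38 and promoter windows from RefSeq on GRCm38.p6. A few genes that the naming rule selects are not reported here.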

Additional observations from a re-analysis of the deposited data

Results flagged for a closer look

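Among 62 values checked over the 4 spleens, 5 had 1 library far from the others, and chance gives about 1 in 20. The summed level of the natural killer list, which is Klrb1c alone, was 5.635 CPM in spleen 1 against 2.261 to 2.7003 CPM in the other spleens. The summed erythroid level was 63857 CPM in spleen 3, below the other spleens. The summed ZFP36 family level was 368.96 CPM in spleen 1 against 241.39 to 262.23 CPM. In spleen 3, S100a9 reached 2016.6 CPM and S100a8 1429.4 CPM, above the other spleens. The 3 ovaries are too few for this check.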

How the results depend on the processing

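No call was reversed under any alternative for the comparison as a whole. With total reads 2115 genes were called in spleen and 7835 in ovary, and the Zfp36l2 difference was 0.00403 (limma adjusted p 0.985). Requiring at least 10 reads in all 7 libraries gave 2833 and 3606 calls over 14345 genes, where fewer genes were tested. The adjusted p alone gave 6417 and 7876, and a log2 limit of 3 gave 813 and 1837. Other settings gave 3163 to 3806 calls in spleen and 4166 to 6183 in ovary, among them edgeR (3731 and 5897) and DESeq2 (3806 and 5789). Leaving out each library gave 3563 to 3752 and 5724 to 5915, and 0.47 to 0.73 for Zfp36l2. Under total reads the median turned negative for the mast cell, endothelial and exosome lists and for the spleen stroma (2 members called in spleen), other ARE-binding (3), deadenylation (4) and ARE cytokine (4) lists. Without spleen replicates 1 and 4, chosen after seeing the data, 1 pancreatic acinar gene was called in spleen and 3 in ovary, and the list's median changed sign. Acinar calls in spleen ran from 1 to 8 when 1 library was left out, the 8 being without spleen 3. They numbered 7 in edgeR and in DESeq2. A pseudocount of 1 lowered the ovary calls of the Hox (11), adipocyte (3) and cholesterol (3) lists.

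The replicate block gave 3605 and 5840 calls and 0.63 for Zfp36l2. Of the main calls, 3561 in spleen and 5800 in ovary were shared with it. List calls under the block differed for mast cells (2 in ovary), endothelium (3 in spleen), TGF-beta ligands (16 in ovary), MHC class I (10 in spleen) and cholesterol synthesis (3 in ovary). The numbers mark different animals.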
